A study of Saccharomyces cerevisiae with 6 samples.

Results

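The 10 genes described here encode enzymes of transsulfuration, of methionine synthesis and of the methyl cycle in *Saccharomyces cerevisiae*. They were chosen by systematic name, and all 10 were found among the 5657 genes of the deposited table, each with 1 probe set. *S. cerevisiae* F12, a strain of industrial background modified for ethanol production from lignocellulose, was sampled after 4 h of fermentation, with 3 arrays of cells with 40% (w/w) insoluble solids (IS) and 3 arrays of cells without IS. Glass beads served as the IS, and the YNB medium of both groups held glucose at 20 g/L and ammonium sulfate at 7.5 g/L. Labelled cDNA made from total RNA was hybridized to Affymetrix yeast arrays.

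The measurement used was the authors' mean log2 signal of each probe set over all arrays, those with and those without IS together. It carries no value per array or per condition, so no error can be given for it and the cells with and without IS were not compared here. A probe set's signal also depends on how well its own probes bind. The values therefore say how far a probe set stood above the dim end of the table, and the order of the genes by signal is not an order of transcript levels. Over the 5705 probe sets the authors' mean log2 signal had a median of 8.79, quartiles at 8.03 and 9.74, and a range of 6.20 to 14.14.

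Sulfur reaches the amino acids of yeast as sulfide, which is built into homocysteine. Homocysteine stands at a branch, since transsulfuration turns it into cysteine by way of cystathionine, and can be formed again from cysteine by the reverse route, while methylation turns it into methionine. Methionine is then activated to S-adenosylmethionine, the methyl donor of the cell, and after the methyl group is given away the remainder is split to return homocysteine. Many genes of these routes are known targets of the transcription factor Met4, which is brought to DNA by Cbf1, Met31 and Met32.

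None of the 10 probe sets was in the dimmest 25% of the table, and 8 were in the brightest 25% of it. All 10 were above the median of the table. The 2 outside the brightest 25% were those of *STR2* and *STR3*, which encode the enzymes of the route from cysteine back to homocysteine. Over the 10 probe sets the mean log2 signal had a median of 11.35 and a range of 8.80 to 13.39.

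**Figure D1:**
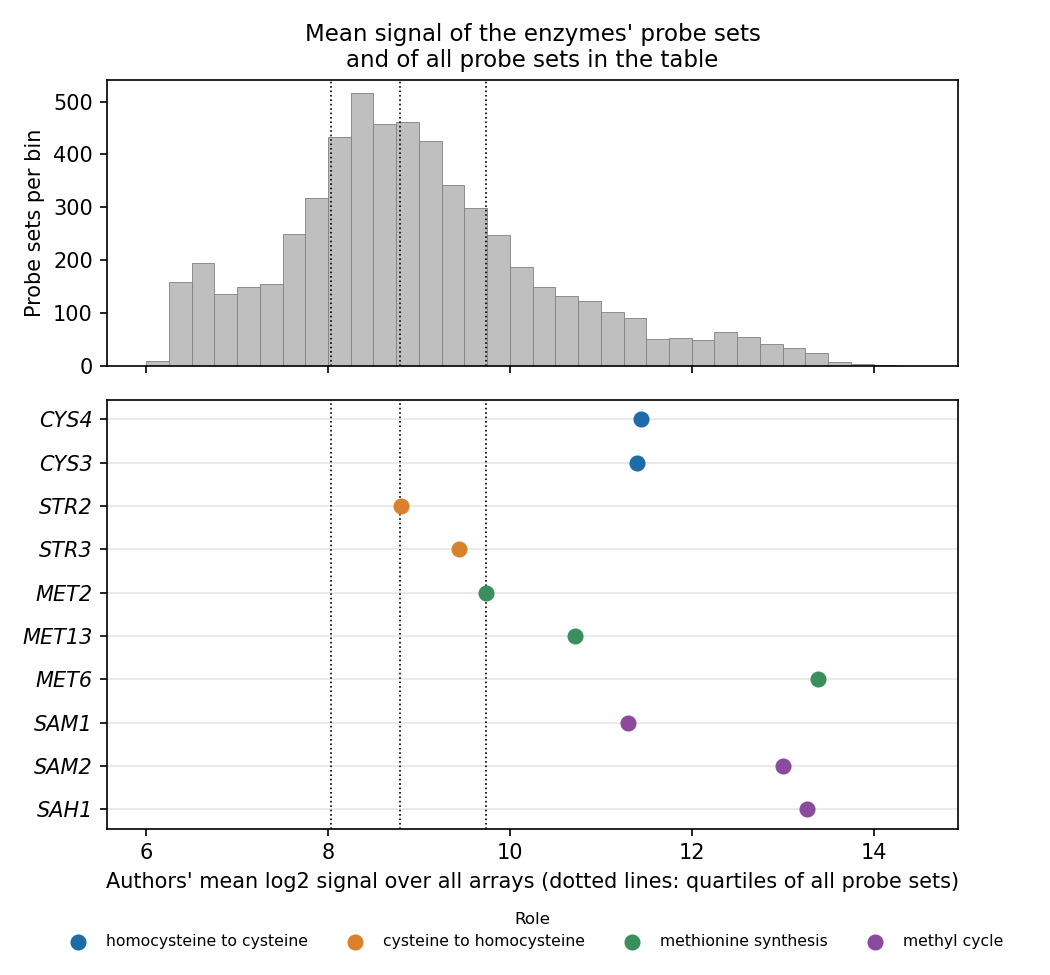
The upper panel gives the number of probe sets per bin of the authors' mean log2 signal over all arrays, for all 5705 probe sets of the table. The lower panel gives the same quantity for the probe set of each of the 10 enzymes as a point coloured by role, and dotted lines mark the quartiles of all probe sets. The points of *STR2* and *STR3* lie between the median (8.79) and the upper quartile (9.74), that of *MET2* lies at the upper quartile, and the other 7 lie above it.

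In the route from homocysteine to cysteine, *CYS4* (YGR155W) encodes cystathionine beta-synthase, which joins homocysteine and serine, and *CYS3* (YAL012W) encodes cystathionine gamma-lyase, which releases cysteine. The probe set of *CYS4* had a mean log2 signal of 11.44, and 93.0% of the probe sets of the table were dimmer. For *CYS3* the mean log2 signal of the probe set was 11.40, with 92.8% of the probe sets dimmer. Both probe sets were thus well clear of the dim end of the table.

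In the reverse route, *STR2* (YJR130C) encodes cystathionine gamma-synthase, which forms cystathionine from cysteine, and *STR3* (YGL184C) encodes cystathionine beta-lyase, which releases homocysteine from it. The probe set of *STR2* had a mean log2 signal of 8.80, close to the median of the table, with 50.3% of the probe sets dimmer. For *STR3* the mean log2 signal of the probe set was 9.45, with 69.0% of the probe sets dimmer.

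Further enzymes lead to methionine. *MET2* (YNL277W) encodes homoserine O-acetyltransferase, which supplies the carbon skeleton that takes up sulfide. Its probe set had a mean log2 signal of 9.74, just inside the brightest 25%, with 75.2% of the probe sets dimmer. *MET13* (YGL125W) encodes a methylenetetrahydrofolate reductase, which makes the methyl-carrying folate. Its probe set had a mean log2 signal of 10.72, with 87.5% of the probe sets dimmer. *MET6* (YER091C) encodes the cobalamin-independent methionine synthase, which passes this methyl group to homocysteine. Its probe set had a mean log2 signal of 13.39, with 99.7% of the probe sets dimmer.

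In the methyl cycle, *SAM1* (YLR180W) and *SAM2* (YDR502C) encode the S-adenosylmethionine synthetases, and *SAH1* (YER043C) encodes S-adenosylhomocysteine hydrolase, which returns homocysteine to the cycle. The probe set of *SAM1* had a mean log2 signal of 11.30, with 92.1% of the probe sets dimmer. For *SAM2* the mean log2 signal of the probe set was 13.00, with 98.8% of the probe sets dimmer. The genes *SAM1* and *SAM2* are close paralogs. How far their probe sets share signal was not tested, and the values of the pair do not rank the synthetases. For *SAH1* the mean log2 signal of the probe set was 13.27, with 99.4% of the probe sets dimmer.

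All 10 probe sets carry the plain "_at" ending, as do 5577 of the 5705 in the table. The endings "_s_at" (102 probe sets) and "_x_at" (26 probe sets), which Affymetrix uses for probes that can match more than 1 transcript, did not occur among the 10. In the reference gene order the 10 genes lie on 7 chromosomes, with 0 pairs of them next to each other.

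A further 26 genes of sulfur metabolism, each with 1 probe set, were described in the same way. Of these probe sets 11 were in the brightest 25% and 6 in the dimmest, with a median mean log2 signal of 9.62 and a range of 7.76 to 12.44. The 8 probe sets grouped as sulfate assimilation had a median of 10.14, with 5 in the brightest 25% and 0 in the dimmest. Besides *MET3*, *MET5*, *MET10*, *MET14* and *MET16*, the group took in *MET1*, *MET8* and *MET17*, the last with its highest mean (12.40). The 3 of homoserine synthesis, which precedes *MET2*, were all in the brightest 25% (11.33 to 12.44). The 6 of the regulators, Met4 and its partners among them, were at 7.93 to 9.12, with 0 in the brightest 25% and 3 in the dimmest. The 6 of transporters were at 7.76 to 10.34, with 2 in the brightest 25% and 2 in the dimmest. The 3 of the methyl cycle and methionine recycling outside the 10 enzymes were those of *MET12* (9.62), *SAM4* (9.74) and *MHT1* (7.96). That of *SAM4* was only just inside the brightest 25%, and that of *MHT1* was in the dimmest 25%.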

How the data were processed

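Total RNA of cells with and without IS was copied into cDNA, which was labelled with biotin and hybridized to Affymetrix Yeast Genome 2.0 arrays. The authors normalized the arrays with RMA in Expression Console and used limma; versions are not given in the sources used here, nor is how the 5705 probe sets were chosen. The authors' deposited table gives the mean log2 signal of each probe set over all arrays, which was the 1 value column used. Its other 5 filled columns are the authors' own comparison of the conditions (a log2 difference, a moderated t, a p-value, an adjusted p-value and a log-odds score) and were not used; 3 columns were empty. Values per array were not analysed here, so no test was made and no error could be computed. The number of arrays limits the precision.

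For each probe set the share of all probe sets with a lower mean was computed, and the quartiles of the table marked its dimmest and brightest 25% (a check on values with known ranks gave the right shares). Systematic names were matched to RefSeq genes of assembly GCF_000146045.2 R64, which held 5692 of the 5705 rows and all 10 members; names and gene order alone were taken from it. All 10 members are named. The 26 other sulfur genes were counted as a list, and some of them are named. Members and lists were chosen with earlier results of these data known. Promoter motifs, protein identity and amino acid content had been planned and were not analysed here. Python 3.11.15, numpy 2.4.6, pandas 2.3.3, scipy 1.17.1 and matplotlib 3.10.9 were used.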

Additional observations from a re-analysis of the deposited data

How the results depend on the processing

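All 10 probe sets were at or above the lower quartile of the table (8.03). The count was 10 also with 1 probe set per gene (5657 probe sets, the one with the highest mean kept). It was 10 again with the 10th percentile (7.15) in place of the lower quartile. Neither setting could have given a lower count, so these counts do not test the result. The 10th percentile is the lower cut. Keeping 5657 of 5705 probe sets could not bring *STR2* (8.80), the dimmest of the 10 and above the median (8.79), below the lower quartile. With 1 probe set per gene the share of dimmer probe sets moved by at most 0.30 percentage points for any of the 10 genes, and 8 were again in the brightest 25%. Among the 26 other sulfur genes, *MET1* (9.73) did change place. It was below the upper quartile of all probe sets (9.74) and above that with 1 probe set per gene (9.72). No paired analysis was possible because the value used is a mean over all arrays and comes from no test. The same holds for leaving out an array. The alternatives planned for promoter motifs, protein identity and amino acid content were not run.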
